A study of Drosophila melanogaster with 4 samples.

Results

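Glycolysis enzyme mRNAs were followed across the maternal-to-zygotic transition of the Drosophila embryo. The 10 genes Pgi, Pfk, Ald1, Tpi, Gapdh1, Gapdh2, Pgk, Eno, PyK and Ldh were chosen by name, from 14001 annotated genes in the tables. All 10 were found. The material was whole Drosophila melanogaster embryos aged 0–1 h or 4–5 h from egg laying, with 2 libraries per age. All were of strain w118, and no other allele or agent is named. Embryos of both ages were bleached to remove the chorion, and RNA was taken from the lysate supernatant after a spin. Total RNA, with no poly(A) selection beforehand, went into Nanopore direct RNA libraries, which read native RNA molecules. Whether the number of reads of an mRNA depended on its poly(A) tail was not tested.

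Glycolysis splits glucose into pyruvate in the cytosol and yields ATP and NADH, and lactate dehydrogenase regenerates NAD+ from pyruvate. The insect egg is loaded by the mother with mRNAs that the early embryo translates before its own genome is transcribed, and many of these are degraded as zygotic transcription starts. In Drosophila, glycolytic and Ldh transcription is known to rise later in embryogenesis under the estrogen-related receptor ERR. The comparison of 0–1 h with 4–5 h thus sets the maternal supply of these mRNAs against the level after genome activation.

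Libraries held 573843 and 557424 reads at 0–1 h and 883138 and 429534 reads at 4–5 h. Genes with RpL or RpS symbols took 23.0% and 25.9% of reads at 0–1 h against 49.6% and 49.2% at 4–5 h. All 6 listed maternal germ line mRNAs fell and all 6 listed zygotic mRNAs rose, the directions the stage labels give. The lists were chosen with earlier results of these data known, so this is not a separate check of the labels. Somatic tissue of the mother was nearly absent, as yolk protein and chorion genes had 0, 0, 3 and 3 reads over 9 genes. Of 7 hemocyte markers 5 were at 0 in all libraries, while srp went from 3 and 2 reads to 28 and 18 and crq from 92 and 96 to 20 and 9. The 5 testis genes had 0, 0, 2 and 1 reads. In whole embryos, fewer cells of a type and less RNA per cell cannot be told apart. The labels do not say whether replicates came from separate collections, so the spread behind each p-value is that of these libraries and may be technical.

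Glycolytic genes held a far smaller share of reads at 4–5 h than at 0–1 h. The share was 0.76% and 0.81% at 0–1 h and 0.028% and 0.036% at 4–5 h. These values, and the CPM below, are relative to the other reads of a library and do not give amounts per embryo. The 10 genes together had 4375 and 4523 reads at 0–1 h and 245 and 154 at 4–5 h. In CPM (reads per 1000000 reads of tested genes, on TMM-scaled library sizes) the sum fell 11.0-fold, from 5273 ± 346 to 481 ± 44.8 (mean ± SD, n = 2 per stage). Of the 10 genes, 9 had enough reads to be tested with edgeR's quasi-likelihood test, with Benjamini-Hochberg adjustment over 6042 genes and a threshold of 0.05. Lower at 4–5 h were 8 of them, Ald1 alone was higher, and Ldh was not tested. Over all genes 31.5% were called lower and 28.6% higher. The median log2 change of the 9 genes was −4.29, beside −0.10 for all tested genes. Falls of at least 16-fold were called for 5 of the 9 genes and for 4.27% of all tested genes. Genes with few reads at 4–5 h passed the count filter through their 0–1 h libraries alone.

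**Figure D1:**
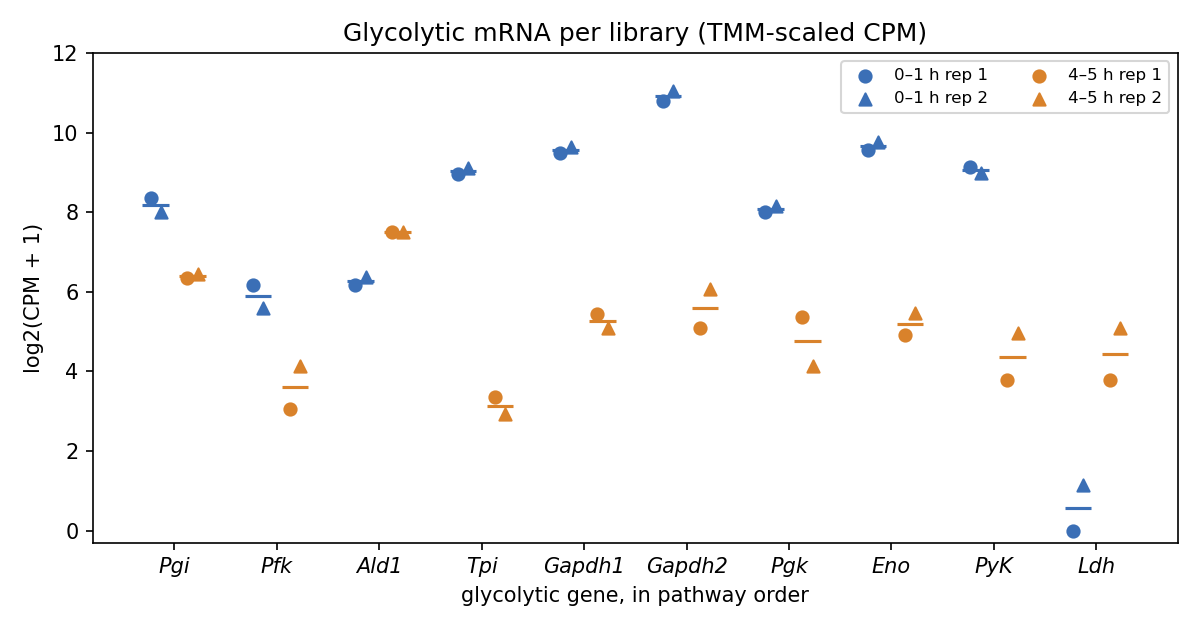
Level of each glycolytic mRNA in each library, as log2(CPM + 1) on TMM-scaled library sizes, with a horizontal bar for the mean of the plotted values per stage. From Tpi to PyK both 0–1 h libraries lie above both 4–5 h libraries, as they do for Pgi and Pfk, whereas Ald1 and Ldh have the reverse order.

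With no library left out, Pgi and Pfk, of the steps before sugar cleavage, had the smallest changes among the 8 genes that fell. Hex-A of the entry step, described further on, fell more. Pgi, glucose-6-phosphate isomerase (FBgn0003074, chromosome 2R 8910900–8914069, 5 exons in the transcript with most reads), had 285 and 210 reads at 0–1 h and 44 and 26 at 4–5 h. The stages did not overlap. Its level fell 3.49-fold, with 292 ± 50.5 CPM before and 83.7 ± 4.14 CPM after (log2 change −1.81, SE 0.26, adjusted p = 5.7e-09). Pfk, phosphofructokinase (FBgn0003071, 2R 10109740–10117457), which commits sugar to glycolysis, had 62 and 39 reads against 4 and 5. Both 4–5 h libraries were below both 0–1 h libraries in CPM, at 12 ± 6.59 against 59.4 ± 16.7. The log2 change was −2.44 (SE 0.47, adjusted p = 5.7e-06), and −1.83 without 4–5 h replicate 1. Without 4–5 h replicate 2 it was −2.99, a larger fall than the −2.73 of Pgk in the same fit, so their order rests on single libraries.

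Ald1, the aldolase that cleaves fructose-1,6-bisphosphate (FBgn0000064, 3R 26254069–26261591), was the exception. It had 62 and 67 reads at 0–1 h and 99 and 54 at 4–5 h. An SD of 2 libraries can lie below counting error. The ratio of summed reads over scaled library sizes was 2.37 (exact 95% counting interval 1.86–3.02). On TMM-scaled libraries both 4–5 h libraries were above both 0–1 h ones, at 180.8 ± 1.29 against 76.5 ± 7.41 CPM. The log2 change was 1.24 (SE 0.26, edgeR adjusted p = 2.4e-05). This direction depended on the scaling: the log2 change was 0.05 with library size only (adjusted p = 0.863) and −0.77 in log2(TPM + 1), where limma called Ald1 lower (adjusted p = 0.0184). The deposited TPM were 37.6 and 38.3 at 0–1 h and 22.0 and 21.6 at 4–5 h. Relative to the median of all genes under the same scaling, Ald1 stood 1.34 higher with TMM, 1.34 with library size only and 0.89 in TPM. TMM and library size only shift all genes nearly alike, so those values are not separate evidence. The changes of the 8 genes that fell lay below the median, also in TPM. Markers of late muscle had 2 and 1 reads at 0–1 h and 95 and 83 at 4–5 h over 9 genes, or 2.30 and 1.22 against 174 and 277 CPM. Act87E had 73 and 39 of the 4–5 h reads and Act57B 7 and 22. Mhc had 2 in each 4–5 h library and Act88F 0 in every library. Their part in the Ald1 value was not tested.

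**Figure D2:**
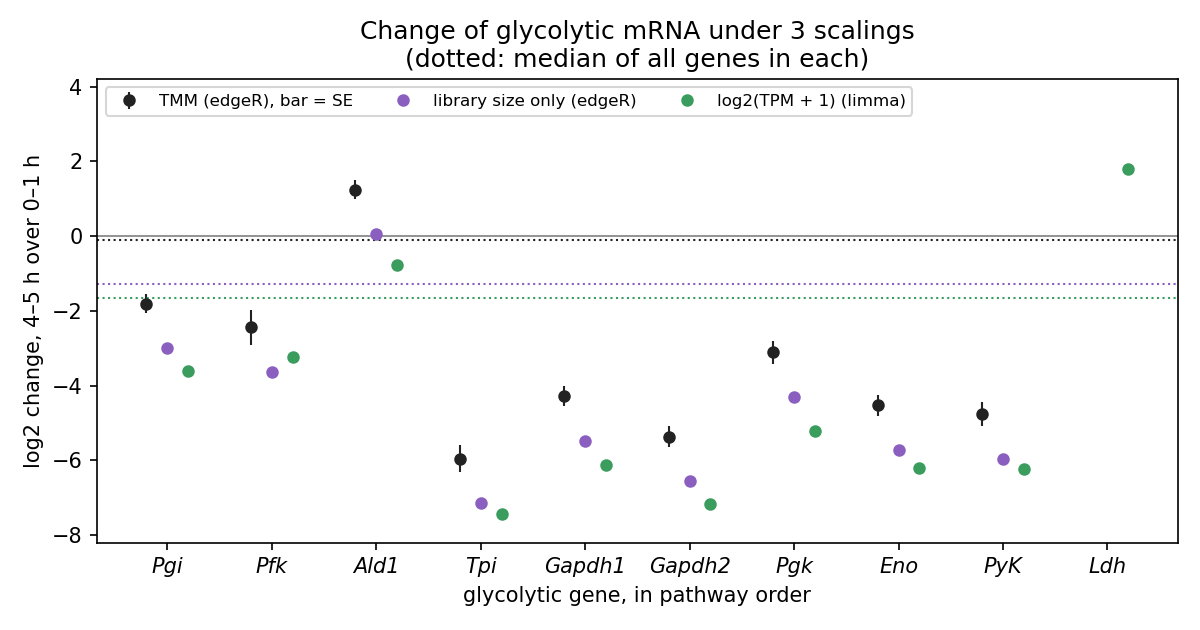
Log2 change of each glycolytic mRNA (4–5 h over 0–1 h) with TMM scaling (black, bar: SE), library size only (purple) and log2(TPM + 1) (green). Dotted lines mark the median change of all genes in each, at −0.10, −1.29 and −1.66. The 8 genes that fell are below their median line in all 3 scalings and Ald1 is above it, and Ldh has a point only for TPM.

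The largest falls among the members were those of Tpi and Gapdh2, of the triose steps, which interconvert and oxidise the 3-carbon sugars. Gapdh1, of the same steps, fell less than PyK (log2 change −4.76) and Eno (−4.53). Tpi, triosephosphate isomerase (FBgn0086355, 3R 30132981–30134599), had 430 and 456 reads at 0–1 h but only 5 and 2 at 4–5 h. That was a 66.3-fold fall, with 525 ± 43.9 CPM at 0–1 h and 7.92 ± 1.78 CPM at 4–5 h (log2 change −5.96, SE 0.36, adjusted p = 1.8e-26). Tpi was within the lowest 1.59% of log2 changes over all tested genes. Both genes for glyceraldehyde-3-phosphate dehydrogenase, the enzyme that reduces NAD+, fell with it. Gapdh2 (FBgn0001092, X 15868145–15869661) had 1545 and 1741 reads at 0–1 h and 18 and 20 at 4–5 h. Its level fell 39.1-fold, with 1950 ± 246 CPM before and 49.8 ± 23.8 CPM after (log2 change −5.37, SE 0.28, adjusted p = 6.0e-28). Gapdh1 (FBgn0001091, 2R 7791901–7793380), whose main transcript has 1 exon, had 628 and 650 reads against 23 and 10. It fell 20.1-fold, with 757 ± 50.4 CPM before and 37.8 ± 6.30 CPM after (log2 change −4.29, SE 0.27, adjusted p = 3.9e-25).

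The ATP-forming end of the pathway also fell. Pgk, phosphoglycerate kinase (FBgn0250906, 2L 2746880–2753068), had 224 and 231 reads at 0–1 h and 22 and 5 at 4–5 h. Those 4–5 h libraries were apart, at 40.4 and 16.7 CPM, but both lay below the 0–1 h values of 257 and 282. The log2 change was −3.11 (SE 0.31, adjusted p = 1.0e-14), or −4.0 and −2.73 without 4–5 h replicates 1 and 2. Eno, enolase (FBgn0000579, 2L 1724768–1729636), had 654 and 712 reads against 16 and 13. It fell 22.3-fold, with 810 ± 82.7 CPM before and 36.3 ± 9.86 CPM after (log2 change −4.53, SE 0.28, adjusted p = 5.5e-26). PyK, pyruvate kinase (FBgn0267385, 3R 22367536–22372746), had 485 and 416 reads against 7 and 9, with no overlap of the stages. Its log2 change was −4.76 (SE 0.32, adjusted p = 1.2e-23), or −4.14 and −5.35 without 4–5 h replicates 1 and 2. Exons of Pgk and Eno overlap the opposite-strand genes Cwc25 and Rrp40, and whether reads were assigned by strand is not given in the sources used here. Cwc25 had 15, 8, 16 and 8 reads and Rrp40 26, 33, 58 and 41 over the 4 libraries. Ald1 likewise overlaps an annotated antisense RNA.

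Ldh, lactate dehydrogenase (FBgn0001258, 3L 6259105–6262694), was close to undetected in the early embryo. It had 0 and 1 reads at 0–1 h and 7 and 10 at 4–5 h. The ratio of summed reads over scaled library sizes was 34, with an exact 95% counting interval of 5.33–1421 that covers counting error only. In the fit with no filter on low counts, Ldh was called higher (log2 change 4.69, adjusted p = 3.5e-05). In log2(TPM + 1) its change was 1.78 with limma (adjusted p = 0.00461). At 12.8 and 33.3 CPM the 4–5 h libraries were above both 0–1 h libraries, and every one of the 4 rests on 10 reads or fewer.

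The order of the enzymes in abundance also changed. Compared per length, in deposited TPM at 0–1 h, Gapdh2 was highest at 1578 ± 66.9, followed by Gapdh1 at 642 ± 12.4 and Tpi at 544 ± 8.80 (SD, n = 2). Then came Eno at 410 ± 31.1, PyK at 287 ± 43.1, Pgk at 199.6 ± 4.43 and Pgi at 127 ± 38.6. Ald1 at 37.9 ± 0.55 and Pfk at 17.4 ± 5.82 were far lower, and Ldh was at 0 and 0.924. In CPM, which are not divided by length, Eno at 810 ± 82.7 stood above Gapdh1 at 757 ± 50.4 and PyK at 532 ± 35.3 above Tpi at 525 ± 43.9, both pairs overlapping between libraries. None of the 9 neighbouring pairs in the TPM order overlapped between libraries. At 4–5 h Ald1 was highest at 21.8 ± 0.24 TPM, followed by Gapdh2 at 10.7 ± 5.73, Pgi at 9.28 ± 1.45 and Gapdh1 at 8.26 ± 0.82. The remaining genes lay between 4.52 ± 0.14 for Eno and 0.92 ± 0.49 for Pfk. In 6 of the 9 neighbouring pairs at this stage the libraries overlapped. In CPM at 4–5 h Ald1 was again highest, but Pgi at 83.7 ± 4.14 stood above Gapdh2 at 49.8 ± 23.8, with no overlap. Tpi at 7.92 ± 1.78 CPM was lowest, overlapping between libraries with Pfk at 12 ± 6.59. As a share of the TPM of the 10 genes, Gapdh2 went from 39.7% and 42.4% to 10.5% and 19.6%, and Ald1 from 0.974% and 1.00% to 34.9% and 28.7%.

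Use of the Gapdh paralogues was compared as the share of Gapdh1 among reads of both genes. It was 28.9% (exact 95% interval 27.0–30.9, counting error only) and 27.2% (25.4–29.0) at 0–1 h. At 4–5 h it was 56.1% (39.8–71.5) of 41 reads and 33.3% (17.3–52.8) of 30 reads. Both 4–5 h values were above both 0–1 h values, but the 4–5 h libraries differed widely, giving 44.7% ± 16.1 against 28% ± 1.21 (SD, n = 2 per stage). The two-sided exact permutation test over the 4 libraries gave p = 0.333, the smallest it can give here. The 4–5 h reads are too few to tell a shift between the paralogues from the spread of the libraries.

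Isoform use, the split of a gene's reads over its transcripts, was compared by diffSpliceDGE of edgeR wherever 2 or more transcripts passed the count filter. Of 823 genes 108 were called (13.1%), a count that was 0 with any library left out. None of the 4 glycolytic genes that could be tested was among the 108. Adjusted p were 0.279 for Gapdh2, 0.424 for Tpi and 0.998 for both Pgi and Eno. Over both 4–5 h libraries these genes had 38, 7, 70 and 29 reads in that order, too few to read the absence of a call as unchanged isoform use. The authors' assignment of Pgi reads differed between replicates: Pgi-RC, whose annotated start lies downstream of that of Pgi-RA, took 229 of 285 reads in 0–1 h replicate 1 and 0 of 210 in replicate 2. At 4–5 h it took 0 of 44 and 16 of 26 reads. Whether isoform use or only the assignment of reads varied was not tested. Pgk was assigned to Pgk-RA for 224 of 224 and 228 of 231 reads at 0–1 h, and at 4–5 h to Pgk-RB for all 22 reads of replicate 1 and to Pgk-RA for all 5 of replicate 2. Tpi-RB held 91.5% and 78.3% of Tpi reads at 0–1 h, with most of the rest on Tpi-RC, and all 7 reads at 4–5 h. Gapdh1-RB and Gapdh2-RC held at least 97.0% of the reads of their genes in every library. PyK-RB held 100% and 99.6% at 0–1 h and 73.3% and 100% at 4–5 h, where PyK-RA had 1.87 of 7 reads in replicate 1.

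Annotated 3′ ends differ between transcripts of Pfk, Ald1, Eno and Ldh. Ald1-RM and Ald1-RB share a start, and the 3′ end of Ald1-RB (3R 26254069, minus strand) lies 534 nt beyond that of Ald1-RM (26254603). At 0–1 h Ald1-RM held 98.4% and 98.5% of Ald1 reads and Ald1-RB had 0 of 62 and 0 of 67, which at a limit of 3 reads allows shares of up to 4.84% and 4.48% (the exact intervals reach 5.78% and 5.36%). At 4–5 h the longer form had 7.65% of 99 reads in replicate 1 (exact interval 3.55–15.3) and 49.5% of 54 reads in replicate 2 (36.1–63.9). It was seen at 4–5 h alone, in shares that differed between the replicates by more than counting error. Whether use of this form or only the assignment of reads to it varied was not tested. Ald1 did not have 2 transcripts past the filter, and the fit with no filter gave an adjusted p of 0.422 for its isoforms.

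In Eno the form with the farther end, Eno-RE (206 nt beyond), held 53.6% and 35.6% of reads at 0–1 h, and 0 of 16 and 83.6% of 13 reads at 4–5 h. With transcripts grouped by 3′ ends within 50 nt, Eno was not called (diffSpliceDGE adjusted p = 0.974). Pfk-RB, ending 320 nt beyond the other Pfk forms, held 89.6% and 50.4% of reads at 0–1 h, and 0 of 4 and 5 of 5 at 4–5 h. The other Pfk reads were on Pfk-RC at 0–1 h and on Pfk-RE at 4–5 h. All 7 Ldh reads of 4–5 h replicate 1 were on Ldh-RA and all 10 of replicate 2 on Ldh-RB, whose end is 387 nt farther. In Eno and Pfk the 4–5 h replicates were on opposite sides of the 0–1 h shares, and the single Ldh read at 0–1 h was on Ldh-RA. For Ald1, Eno, Pfk and Ldh alike, the farthest end seen held a larger share in 4–5 h replicate 2 than in replicate 1. Whether isoform use or only the assignment of reads differed between these libraries was not tested.

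**Figure D3:**
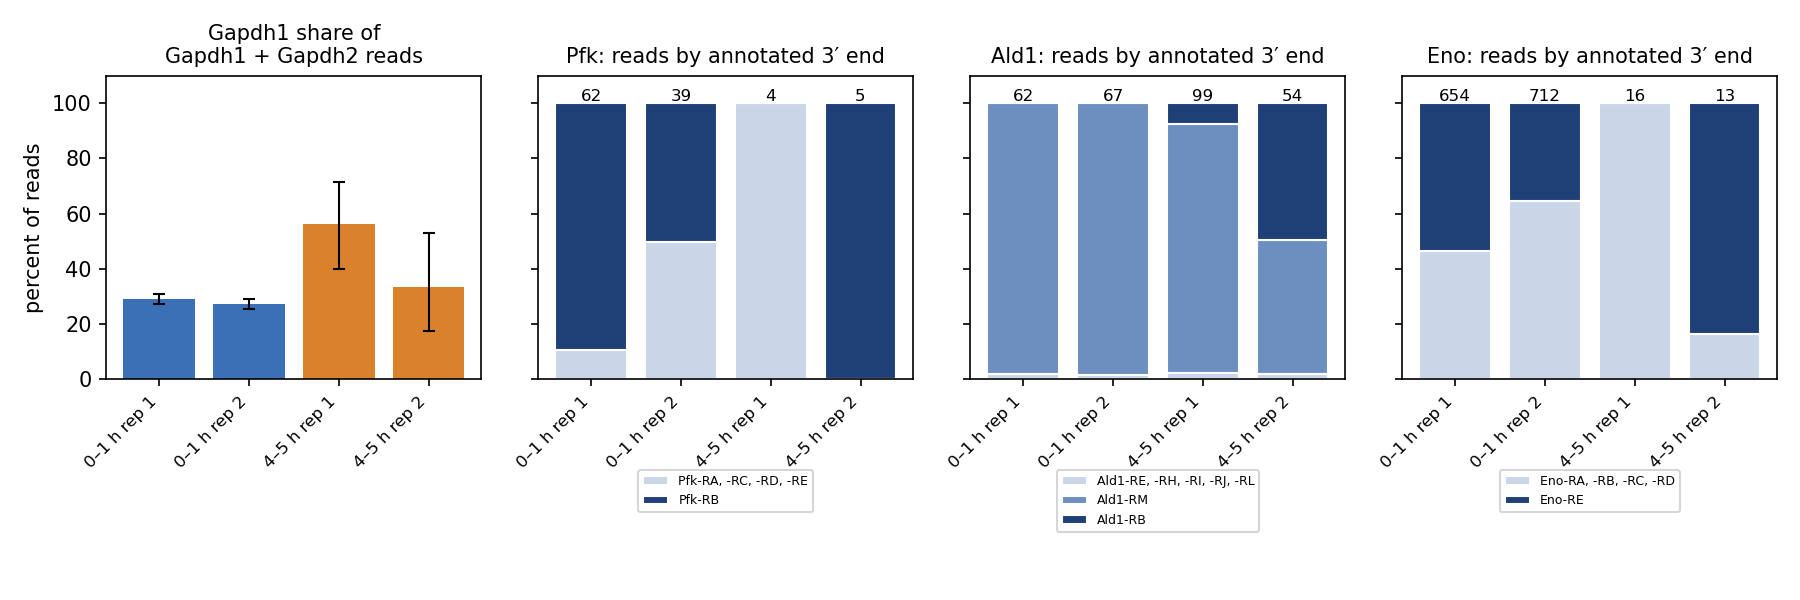
Percent of Gapdh1 among Gapdh1 and Gapdh2 reads in each library (left, bars: exact 95% counting intervals), and percent of Pfk, Ald1 and Eno reads by annotated 3′ end, darkest for the farthest downstream, with the gene's reads above each bar. The 4–5 h bars rest on 4 to 99 reads per gene, and Ald1-RB appears in both 4–5 h libraries and in neither 0–1 h library.

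The steps of glycolysis outside the 10 genes were covered by a list of other enzymes and paralogues, of which 3 of 15 could be tested: 2 fell and 1 rose. Hex-A, the hexokinase that opens the pathway, had 107 and 87 reads at 0–1 h and 2 in each 4–5 h library (log2 change −4.54, SE 0.48). Pglym78, phosphoglycerate mutase, had 360 and 408 reads against 25 and 8 (log2 change −3.57, SE 0.29). Large falls thus occurred at the entry step as well as at the lower steps. Pfrx, the bifunctional enzyme that sets fructose-2,6-bisphosphate, an activator of phosphofructokinase, rose from 13 and 11 reads to 35 and 21 (log2 change 2.21, SE 0.40), although in log2(TPM + 1) limma did not call it (0.31, adjusted p = 0.436). Hex-C, Hex-t1, Hex-t2, Pglym87, Ald2 and 5 genes known by CG numbers had no read in any library. At 3 counts per library this allows up to 3.45, 3.66, 5.51 and 9.99 CPM in the 4 libraries. CG7059 had 0, 0, 3 and 3 reads and CG9961 had 2, 0, 11 and 2. CG7059 and CG9961 thus had few reads at either stage, but at 4–5 h so did Pgk, with 22 and 5, and Tpi, with 5 and 2. Shares between these genes and the members were not compared.

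Counts for neighbouring pathways are set against the 31.5% lower and 28.6% higher over all genes, and moved with the scaling. In the pentose phosphate pathway 3 of 5 tested genes fell and none rose (median log2 change −1.77), against 5 of 5 lower with library size only and 6 of 6 with limma on TPM. Without 4–5 h replicate 2 there was 1 higher. The log2 change was −4.94 for Pgd (SE 0.43), −1.88 for Taldo (SE 0.29) and −1.77 for Rpi (SE 0.34). Rpi was at −2.85 without 4–5 h replicate 1. Among glycogen and trehalose genes 5 of 7 fell and 1 rose (median −2.93), against 7 of 7 lower with library size only. The gene that rose, GlyS, glycogen synthase, had a log2 change of 0.64 (adjusted p = 0.0162, edgeR). Its call depended on the setting: it was lower with library size only (−0.55) and in log2(TPM + 1) (−1.28). GlyS was not called by DESeq2, with replicate number as a further term in edgeR, or without either 0–1 h library. The log2 change was −3.35 for GlyP, glycogen phosphorylase (SE 0.32), −4.66 for AGBE, the branching enzyme (SE 0.45), and −2.93 for UGP (SE 0.35). UGP was at −3.98 without 4–5 h replicate 1, and AGBE at −5.34 with libraries thinned to the total reads of the smallest.

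Downstream of pyruvate, 9 of 12 tested genes of gluconeogenesis and the fate of pyruvate and NADH fell and 1 rose (median −1.70), where DESeq2 called 6 lower and library size only and limma each 11. Mdh1, cytosolic malate dehydrogenase, fell from 637 ± 36.1 CPM at 0–1 h to 80.4 ± 0.57 CPM at 4–5 h. The 4–5 h level rests on 44 and 24 reads, and the log2 change was −2.98 (SE 0.25). Pdha, a pyruvate dehydrogenase subunit, had a log2 change of −2.83 (SE 0.32). The gene that rose was Pepck1, phosphoenolpyruvate carboxykinase of gluconeogenesis, with 2 and 1 reads at 0–1 h and 46 and 25 at 4–5 h, a ratio of 47.3 (exact 95% counting interval 15.6–235).

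Of 14 TCA cycle genes 6 were lower and 3 higher, with a median of −0.26. With library size only 11 were lower and none higher, and with limma 13 and none. DESeq2 called 3 lower and 2 higher, as did edgeR without 0–1 h replicate 2. Mdh2, mitochondrial malate dehydrogenase, fell from 207 and 227 reads to 3 and 2 (log2 change −5.39, SE 0.41). Fum1, fumarase, was at −2.81 (SE 0.32) and SdhA, a succinate dehydrogenase subunit, at −1.70 (SE 0.34). Without 4–5 h replicate 1 Fum1 was at −3.48 and SdhA at −2.70.

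Of 8 tested genes of sugar transport and regulators 4 rose and 2 fell, against 1 and 4 with library size only, none and 5 with limma, and 2 and 2 without 0–1 h replicate 2. Pfrx is among the 4 and was counted above as well. Glut1, a glucose transporter, had 33 and 40 reads at 0–1 h and 1 in each library at 4–5 h, a ratio of 18.3 in the direction of 0–1 h (interval 4.87–154). The hypoxia pathway partner tgo rose with TMM (log2 change 1.75, SE 0.30), but was not called with library size only (0.57, adjusted p = 0.0964, edgeR) or in log2(TPM + 1), where it was at −0.15 (adjusted p = 0.674, limma). ERR, the receptor named above, had 33 and 25 reads against 8 and 10 and was not called (log2 change −0.65, SE 0.45), though it was lower with library size only (−1.84) and in log2(TPM + 1) (−2.05). Except for GlyS, the called genes named from these lists had adjusted p-values of 8.7e-06 or lower (edgeR).

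**Figure D4:**
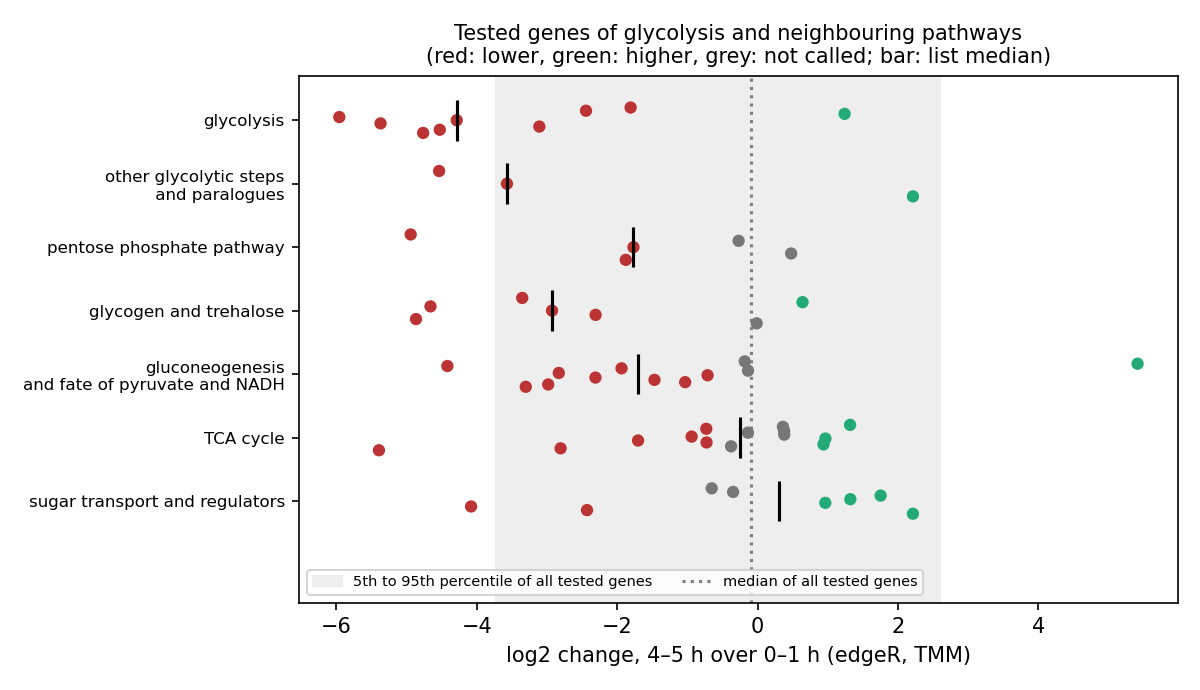
Log2 change (4–5 h over 0–1 h, edgeR with TMM) of each tested gene of glycolysis and of 6 lists of neighbouring pathways, with the list median as a black bar. Glycolysis has its median at −4.29 and TCA cycle genes at −0.26, and the dotted line marks the median of all tested genes at −0.10.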

How the data were processed

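Per the submitters' processing notes, reads were handled with minimap2 and Salmon on build BDGP6. Versions and settings: not given in the sources used here. Deposited read numbers are expected counts per transcript from Salmon, not normalised, and were summed per gene and rounded. TPM are the authors' values too, per the file headers, scaled by an effective length that for 99.1% of transcripts was 250 nt under the full length. FBtr identifiers were looked up in Ensembl release 115 (BDGP6), which held 30280 of 30652, with the same length for 99.4% of these. Coordinates are from that annotation.

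Genes were fitted with edgeR 4.0.16 in R 4.3.3 (filterByExpr with a minimum count of 10, TMM, robust quasi-likelihood, stage as the only term). limma 3.58.1 (log2 of TPM plus 1) and DESeq2 1.42.0 served as alternatives, as did other scalings and filters, thinning to 429525 reads, a replicate block and leaving out each library. The tests were tried on simulated data. Permutations were run with scipy 1.17.1. Members and lists were chosen with earlier results of these data known. All members are named, and of each other list the 3 tested genes with the smallest p and the genes for the same reactions; GlyS and ERR were named after their values were seen. Tkt and ScsA were not matched by symbol. Intervals cover counting error only.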

Additional observations from a re-analysis of the deposited data

How the results depend on the processing

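The log2 changes of the 8 glycolytic genes that fell were negative in all 104 values from 13 alternatives, from −1.64 (Pgi) to −7.43 (Tpi). All alternatives used the same libraries. As both 0–1 h libraries lay above both 4–5 h libraries for each of the 8 genes, leaving out a library could hardly give a rise. These values are thus not separate evidence of a fall. The Ald1 rise was not kept in all alternatives. Its log2 change was −0.77 with limma on log2(TPM + 1) and 1.12 to 1.34 with a library left out. With library size only it was 0.05, and 0 glycolytic genes were called higher there. With no filter 2 were higher, as Ldh entered the fit. The median change of the glycolytic genes was −5.49 with library size only, −3.79 with no filter and −5.67 with limma, where the medians of all genes were −1.29, 0.24 and −1.66. Over all genes, library size only called 656 higher and 3823 lower, limma 542 and 5101, and DESeq2 1124 lower. The cause was not tested.

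The count of 108 genes with changed isoform use fell to 0 with no filter, with the replicate block, with the crossed block and with any library left out (diffSpliceDGE), although 354, 92, 200 and 158 to 257 genes were then at unadjusted p under 0.05. Summing nearby 3′ ends gave 160 of 457 genes. The cause was not tested. Same-numbered replicates share only a number: their deviations from the stage means correlated at −0.159 across genes. With the replicate block 1568 genes were higher and 1694 lower, with 8 glycolytic genes lower and 1 higher as before. Crossing the numbers, an alternative chosen after seeing the data, gave 1834 and 1954. The Gapdh1 share rose by 16.8 percentage points from TPM, which rest on the same reads, and by 5.29 to 28.1 with a library left out. As both 4–5 h shares lay above both 0–1 h shares, leaving out a library could only give a rise. These values are thus not separate evidence of a shift. Of the 10 genes 8 had 20 or fewer reads in 4–5 h replicate 2, so their levels there rest on few reads.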
